A study of Mus musculus with 26 samples.

Results

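The integrated stress response genes examined in brown adipose tissue (BAT) were Atf4 and 9 genes commonly listed with it: Ddit3, Trib3, Asns, Chac1, Sesn2, Ddit4, Psat1, Phgdh and Ppp1r15a. They were chosen by name, with earlier results of these data known, and make up 10 of the 50686 genes of the count table. All 10 passed the filter on low counts, which kept 17286 genes. Gene-level RNA counts were available for 26 male C57BL/6J mice, 12 to 16 weeks old, kept one per cage. Of these, 7 control mice (WT30) and 7 mice labelled Afadin KO (KO30) stayed at thermoneutrality for 2 weeks, and 5 control mice (WT5) and 7 mice labelled Afadin KO (KO5) were then moved to 5 °C for 6 h. Thermoneutrality is 30 °C in the sample labels and 29 °C in the study's methods, and 30 °C is used here. The knockouts, called FAKO, came from a cross of Adiponectin-Cre with mice carrying floxed Mllt4 (Afdn) alleles, and the control mice were littermates whose Cre and flox genotype was not given in the sources used here. Adiponectin-Cre acts in adipocytes of every fat depot, whereas the vessels, nerves, immune cells and stromal cells of a BAT sample keep Afadin. The comparisons asked how these genes responded to cold, and whether the FAKO label changed their level or that response.

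When the translation factor eIF2 is phosphorylated by one of its kinases, bulk protein synthesis slows while the Atf4 mRNA is translated more efficiently. The Atf4 protein, a bZIP transcription factor, then turns on genes for amino acid synthesis and uptake, for glutathione turnover, for restraint of mTORC1 and for dephosphorylation of eIF2. In brown fat this pathway is known for its response to mitochondrial stress and for the secreted factor Fgf21. The libraries measured RNA only, so eIF2 phosphorylation and Atf4 protein were not measured.

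Total counts per library ranged from 12705969 to 25732258. Values are given as CPM, read counts relative to the library total, scaled by TMM factors that adjust for differences in library composition. Differences are log2 fold changes from edgeR, and FDR is the Benjamini-Hochberg adjusted p over all 17286 genes, with 0.05 as the threshold. All 10 brown adipocyte markers were present in every group. Afdn itself was not lower in the mice labelled FAKO at 30 °C (151 to 214 CPM in WT30, 154 to 231 CPM in KO30, log2 fold change -0.01). At 5 °C it was 67.9 to 79.2 CPM in WT5 and 53.3 to 65.3 CPM in KO5, without overlap and without passing the test (edgeR, log2 fold change -0.33, FDR = 0.116). Gene-level counts can include exons outside a floxed segment and RNA of cells without Cre, so the groups are named below by their labels. By immunoblot, the paper reports a smaller cold rise of Afadin protein in the BAT of FAKO mice, a different measure from these RNA counts. Skeletal muscle markers varied widely between mice, with their summed level running from 10 to 17100 CPM. WT30 mouse 7 stood apart, with 14.3% mitochondrial counts, the highest TMM factor (1.291) and the highest fibroblast marker sum (3610 CPM). Its muscle marker sum (13400 CPM) was the highest of the mice at 30 °C, beside at most 3715 CPM in the others.

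Atf4 acts through composite elements that join a C/EBP site to an ATF site. The letters TGATGNAA, a generic form of that element, were searched on both strands of the RefSeq promoters (GRCm38.p6, 250 bases before to 50 bases after a start site). The 10 genes had 11 promoters in the table, since Psat1 had 2 of them. The letters occurred in 3 of the 11 (27.3%) and in 1304 of all 32851 promoters (3.97%). The stricter TGATGCAA, which is contained in the longer search, occurred in 1 of the 11 (9.09%) and in 0.895% of all promoters. Of the genes that rose in the cold, Chac1, Trib3 and Asns had a match, and Atf4, Sesn2, Ddit4, Psat1 and Ppp1r15a had none. Ddit3 and Phgdh, which did not rise, had none either. Absence holds only for the bases searched, and sequence farther from a start site was not examined. Whether a match goes with the cold response was not tested. The 3 promoters with a match are printed 5′ to 3′ on the strand of the gene, with the matching letters in capitals.
Chac1 promoter, chr2:119350992-119351291, plus strand: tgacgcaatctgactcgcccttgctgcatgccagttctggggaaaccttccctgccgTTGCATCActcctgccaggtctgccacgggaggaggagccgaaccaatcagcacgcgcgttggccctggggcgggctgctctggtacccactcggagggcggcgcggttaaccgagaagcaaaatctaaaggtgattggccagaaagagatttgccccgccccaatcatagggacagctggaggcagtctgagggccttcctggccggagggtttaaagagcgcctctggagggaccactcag
Trib3 promoter, chr2:152344011-152344310, minus strand: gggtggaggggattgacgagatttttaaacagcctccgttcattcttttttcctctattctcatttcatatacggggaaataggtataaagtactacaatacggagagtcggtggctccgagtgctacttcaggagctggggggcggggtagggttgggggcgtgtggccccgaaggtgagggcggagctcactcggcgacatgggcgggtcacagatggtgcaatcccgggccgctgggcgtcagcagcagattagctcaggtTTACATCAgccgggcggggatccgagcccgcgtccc
Asns promoter, chr6:7693160-7693459, minus strand: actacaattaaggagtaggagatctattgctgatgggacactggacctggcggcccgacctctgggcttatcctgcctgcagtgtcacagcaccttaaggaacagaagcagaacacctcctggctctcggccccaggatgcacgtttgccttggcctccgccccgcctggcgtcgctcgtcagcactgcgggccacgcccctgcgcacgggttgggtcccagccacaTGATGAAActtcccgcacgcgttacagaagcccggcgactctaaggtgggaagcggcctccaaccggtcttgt
In Chac1 the match began 193 bases before the start site and read TGATGCAA on the opposite strand. The Trib3 match lay 14 bases after the start site, also on the opposite strand. The Asns match began 23 bases before its start site, on the strand of the gene. A match of letters is a description of the sequence, and binding was not measured.

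In control mice, 6 h of cold raised 8 of the 10 genes, lowered Phgdh and left Ddit3 within its error (edgeR). Of all genes tested, 65% passed the same threshold in this comparison, 31.6% upwards and 33.4% downwards. The median log2 fold change of the 10 was 1.62, beside -0.01 over all genes. The groups did not overlap for 8 of the 10, against 46.4% of all genes. In mice labelled FAKO, 8 rose and 2 fell, with a median log2 fold change of 1.93 beside -0.03 over all genes. There 68.6% of all genes passed (33.7% upwards and 34.9% downwards), and the groups did not overlap for 9 of the 10, against 40.4% of all genes. Without KO5 mice 24 and 25, described below, 8 rose and 1 fell. In a bulk tissue, fewer cells of a type and less RNA per cell cannot be told apart for any of these genes.

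**Figure D1:**
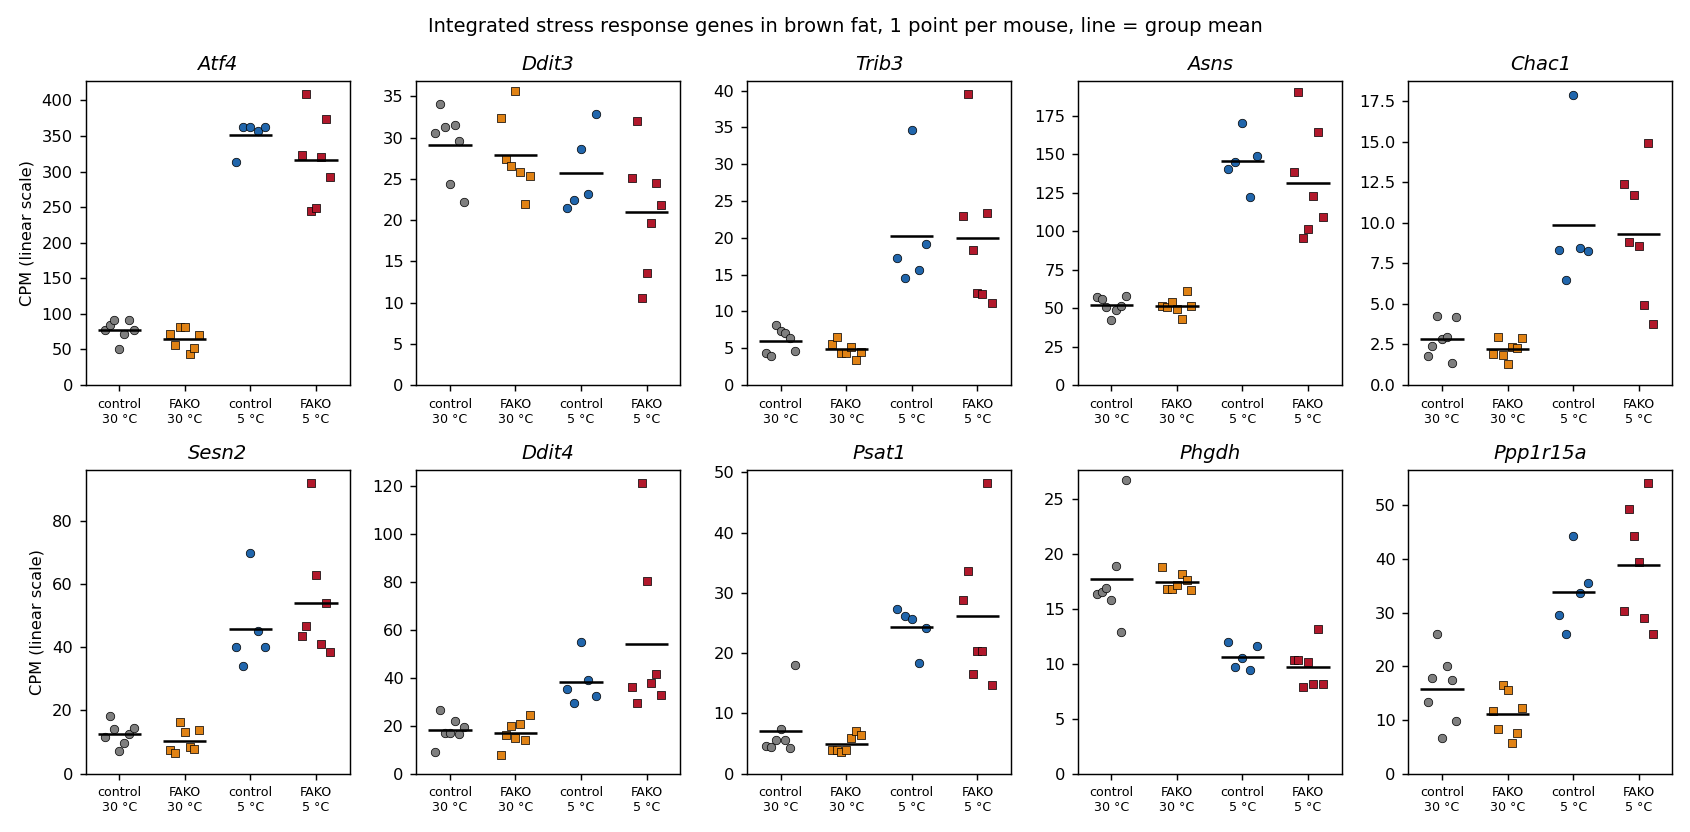
CPM of each of the 10 genes (vertical axes, linear from 0) in the 4 groups (horizontal axes), with 1 point per mouse and a line at the group mean. Atf4 ran from 50.1 to 91.5 CPM in control mice at 30 °C and from 313 to 363 CPM at 5 °C, while Ddit3 overlapped between temperatures and Phgdh was lower in the cold.

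Atf4, the transcription factor of the pathway, was measured at 50.1 to 91.5 CPM in WT30, with a median of 77.8 CPM. The 5 WT5 mice were at 313, 363, 362, 357 and 362 CPM. KO30 ran from 43.7 to 82.2 CPM (median 69.9), and KO5 from 245 to 409 CPM (median 320). Every cold-exposed mouse lay above every mouse at 30 °C. The rise was 4.53-fold in control mice (log2 fold change 2.18, SE 0.15, edgeR FDR = 1.92e-12) and 4.84-fold in mice labelled FAKO (log2 2.27, SE 0.15, edgeR FDR = 2.49e-13). Per kilobase of exon, Atf4 was the most abundant of the 10 in every group, with 32.9 ± 6.01 RPKM in WT30 and 149 ± 9.21 RPKM in WT5 (SD, n = 7 and 5). It lies on chromosome 15 (80255184 to 80257541, plus strand, GRCm38).

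Ddit3 encodes CHOP, the bZIP factor of endoplasmic reticulum stress that Atf4 induces in many cells. It was at 22.2 to 34.1 CPM in WT30 (median 30.6) and at 21.4, 22.4, 28.6, 23.2 and 32.9 CPM in WT5. The WT30 and WT5 mice overlapped over most of their range, with a log2 fold change of -0.18 (95% interval -0.54 to 0.19, edgeR FDR = 0.414). KO30 was at 22 to 35.6 CPM (median 26.5) and KO5 at 10.6 to 32 CPM (median 21.8). The lower level in KO5 passed the test (log2 -0.40, SE 0.17, edgeR FDR = 0.0381), with groups that overlapped. It did not pass without KO5 mice 24 and 25 (log2 -0.20, edgeR FDR = 0.192), which held the lowest Ddit3 values of all 26 mice at 10.6 and 13.6 CPM. The difference between the cold responses of the 2 genotypes was log2 -0.23 (edgeR FDR = 0.704). Ddit3 shares 68 exon bases with Mars, the gene of a tRNA synthetase on the other strand. The strand setting of the counting was not given in the sources used here.

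Trib3, a pseudokinase that dampens Atf4 and CHOP activity, was at 3.93 to 8.2 CPM in WT30 (median 6.35). WT5 mice had 17.3, 14.6, 34.6, 15.6 and 19.2 CPM, all above WT30, with mouse 18 well above the other 4. KO30 was at 3.46 to 6.49 CPM and KO5 at 11.1 to 39.5 CPM. The increase was 3.4-fold in control mice (log2 1.77, SE 0.27, edgeR FDR = 2.44e-06) and 4.13-fold in mice labelled FAKO (log2 2.05, SE 0.26, edgeR FDR = 9.14e-08).

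Chac1, an enzyme that breaks down glutathione, was the rarest of the 10 in reads, with 22 to 91 counts per library at 30 °C. It was at 1.36 to 4.26 CPM in WT30 (median 2.84). The WT5 mice were at 8.3, 6.48, 17.9, 8.47 and 8.24 CPM, again with mouse 18 highest. KO30 ran from 1.3 to 2.94 CPM and KO5 from 3.76 to 14.9 CPM. Cold raised Chac1 3.48-fold in control mice (log2 1.80, SE 0.31, edgeR FDR = 1.22e-05) and 4.15-fold in mice labelled FAKO (log2 2.05, SE 0.30, edgeR FDR = 7.93e-07), and the groups did not overlap in either comparison.

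Asns makes asparagine from aspartate and glutamine. It was at 42.4 to 57.5 CPM in WT30 (median 51.4) and at 140, 145, 170, 122 and 149 CPM in WT5. KO30 was at 42.6 to 60.8 CPM and KO5 at 95.2 to 190 CPM. All cold-exposed mice exceeded all mice at 30 °C, by 2.79-fold in controls (log2 1.48, SE 0.13, edgeR FDR = 1.57e-10) and 2.56-fold with the FAKO label (log2 1.36, SE 0.12, edgeR FDR = 1.92e-10). Asns was second to Atf4 per kilobase in every group, at 19 ± 1.97 RPKM in WT30 and 53.1 ± 6.29 RPKM in WT5.

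Phgdh, Psat1 and Psph catalyse the successive steps of serine synthesis, and they did not move together. Psat1, the middle enzyme, was at 4.31 to 18 CPM in WT30 (median 5.64) and at 27.3, 26.2, 25.6, 18.4 and 24.1 CPM in WT5. It rose 3.36-fold (log2 1.75, SE 0.31, edgeR FDR = 1.81e-05), and the only WT30 mouse near the WT5 values was mouse 7, at 18 CPM. Without that mouse the rise was log2 2.16. In mice labelled FAKO, Psat1 went from 3.55 to 7.08 CPM at 30 °C to 14.8 to 48.2 CPM at 5 °C (log2 2.39, SE 0.30, edgeR FDR = 7.92e-08).

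Phgdh, the first enzyme of the branch, went the other way. It was at 12.9 to 26.7 CPM in WT30 (median 16.5), again with mouse 7 highest, and at 12, 9.68, 10.5, 9.41 and 11.6 CPM in WT5. All WT5 mice were below all WT30 mice (log2 -0.74, SE 0.13, edgeR FDR = 2.83e-05). KO30 was at 16.7 to 18.8 CPM and KO5 at 7.86 to 13.2 CPM (log2 -0.84, SE 0.12, edgeR FDR = 1e-06). Phgdh has 19 near-identical copies in the genome (90.4 to 98.7% identity), and the 14 of them in the count table summed to 0.567 CPM in WT30 and 0.571 CPM in KO5. Psph, the last enzyme and not one of the 10, fell as well (log2 -0.68 in control mice, edgeR FDR = 2.97e-05, and -0.46 in mice labelled FAKO, edgeR FDR = 0.000717). In control mice Phgdh and Psph were thus lower and Psat1 higher after cold, and per kilobase Phgdh passed from 7.13 ± 1.75 to 4.27 ± 0.456 RPKM while Psat1 passed from 1.68 ± 1.15 to 5.72 ± 0.823 RPKM.

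Sesn2 and Ddit4 both restrain mTORC1, Sesn2 as a leucine sensor and Ddit4 (REDD1) through the TSC complex. Sesn2 was at 7.19 to 18.3 CPM in WT30 (median 12.5) and at 40, 34.2, 69.8, 45.1 and 40 CPM in WT5. It rose without overlap, 3.65-fold in control mice (log2 1.87, SE 0.25, edgeR FDR = 2.26e-07). KO30 was at 6.49 to 16.4 CPM and KO5 at 38.6 to 91.8 CPM, a 5.16-fold rise (log2 2.37, SE 0.24, edgeR FDR = 1.36e-09).

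Ddit4, also a known glucocorticoid target, was at 9.15 to 26.4 CPM in WT30 (median 17) and at 35.2, 29.3, 54.8, 38.9 and 32.2 CPM in WT5. That was the smallest of the 8 increases in control mice (log2 1.07, SE 0.31, edgeR FDR = 0.00327), and the groups did not overlap. KO30 was at 8 to 24.6 CPM. The KO5 mice were at 36.1, 29.6, 121, 80.3, 37.7, 41.7 and 32.7 CPM, so that mice 24 and 25 lay far above the other 5. The rise was log2 1.68 (SE 0.29, edgeR FDR = 1.09e-05) with them and 1.05 without them.

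Ppp1r15a encodes GADD34, the inducible subunit that directs phosphatase to eIF2 and so ends the response. It was at 6.59 to 26.1 CPM in WT30 (median 17.4) and at 29.6, 26.1, 44.3, 33.6 and 35.6 CPM in WT5, where the highest WT30 and the lowest WT5 mouse met. The rise was 2.14-fold in control mice (log2 1.10, SE 0.27, edgeR FDR = 8e-04). KO30 was at 5.64 to 16.5 CPM and KO5 at 26 to 54.2 CPM, without overlap (log2 1.82, SE 0.25, edgeR FDR = 5.28e-07). The gene shares 12 exon bases with Tulp2 on the other strand.

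**Figure D2:**
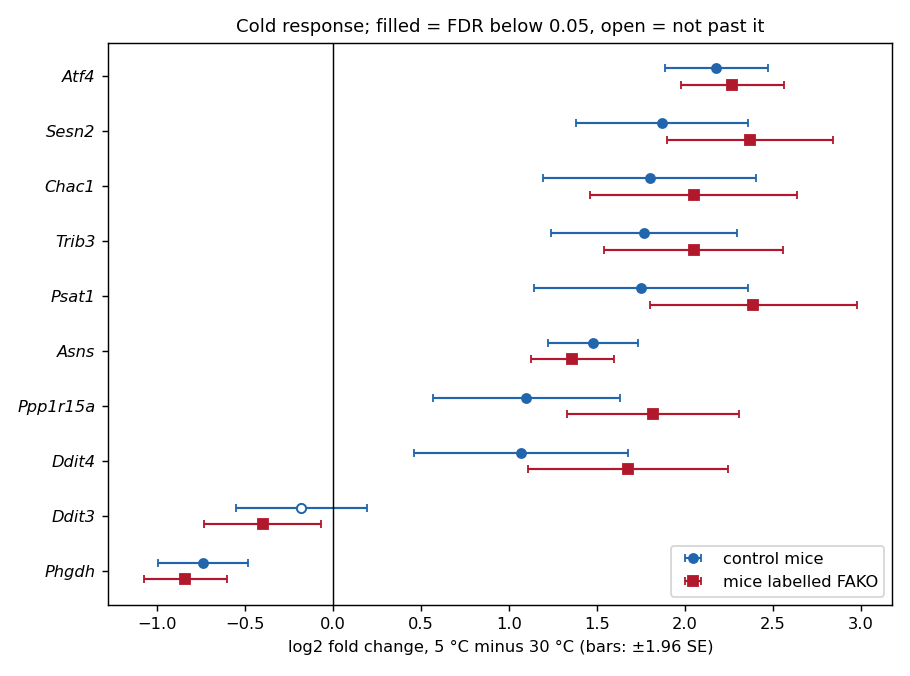
Log2 fold change of the 10 genes from 30 to 5 °C (horizontal axis) in control mice (circles) and mice labelled FAKO (squares), with bars for 95% intervals from the SE and open symbols where FDR did not pass 0.05. Atf4 stood highest in control mice at 2.18, Phgdh lowest at -0.74, and Ddit3 in control mice was the only open symbol.

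Cold changed the order of the levels per kilobase. In WT30 it ran from Atf4 through Asns (19 RPKM), Ddit3 (17 RPKM), Ddit4 (10.3 RPKM), Phgdh (7.13 RPKM), Ppp1r15a (5.41 RPKM), Sesn2 (3.61 RPKM) and Trib3 (2.81 RPKM) to Chac1 (1.73 RPKM) and Psat1 (1.68 RPKM). The means of Asns and Ddit3, of Phgdh and Ppp1r15a, of Ppp1r15a and Sesn2, of Sesn2 and Trib3, and of Chac1 and Psat1 differed by less than the larger SD of each pair. In WT5 Phgdh had the lowest mean of the 10 at 4.27 ± 0.456 RPKM, within the spread of Chac1 (6.03 ± 2.78 RPKM), and Ddit4 (21.7 ± 5.69 RPKM) stood above Ddit3 (15 ± 2.87 RPKM) by a gap that the spread of Ddit4 nearly spans.

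Relatives of the 10 genes did not all move with them. Of 9 family members, 5 rose, 3 fell and 1 did not pass in control mice (4, 3 and 2 in mice labelled FAKO). Atf5, the bZIP factor closest to Atf4 and itself controlled by eIF2, rose from 34.7 ± 12.2 CPM in WT30 (n = 7) to 162 ± 28.4 CPM in WT5 (n = 5), a log2 fold change of 2.22 (2.29 in mice labelled FAKO). Atf3 rose by log2 1.68 and 2.90, and Trib1, a relative of Trib3, by 2.29 and 2.40. Trib2 passed in control mice, by 0.23, and stood at -0.05 in mice labelled FAKO (edgeR FDR = 0.602), and the difference of these responses was log2 -0.27 (edgeR FDR = 0.242).

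The sestrins divided. Sesn1 fell from 19.9 ± 2.22 to 9.9 ± 1.8 CPM in control mice (log2 -1, and -0.67 in mice labelled FAKO), and Sesn3 fell from 38.8 ± 2.79 to 13.2 ± 1.61 CPM (log2 -1.55 and -1.39), where Sesn2 rose. Chac2, which breaks down glutathione as Chac1 does, fell by log2 -0.43 and -0.34. Ppp1r15b, the constitutive counterpart of Ppp1r15a, rose by 1.25 and 1.22, and Ddit4l did not pass (log2 -1.07, edgeR FDR = 0.36, and 0.23, edgeR FDR = 0.826).

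Of 39 other genes known as Atf4 targets, 25 rose, 6 fell and 8 did not pass in control mice, and 27 rose, 8 fell and 4 did not pass in mice labelled FAKO. Their median log2 fold change was 1.30 in both. The largest increases were those of Fgf21, the secreted metabolic hormone (log2 5.18 and 5.52), Mthfd2, a mitochondrial one-carbon enzyme (3.95 and 3.71), and Slc3a2, the shared chain of several amino acid transporters (3.48 in both). Slc3a2 went from 22.4 to 29 CPM in WT30 to 274 to 306 CPM in WT5, and Mthfd2 from 1.87 to 4.26 CPM to 27.8 to 52.9 CPM. Fgf21 was nearly silent at 30 °C, with 0 to 28 counts in WT30, and reached 166 to 461 counts in WT5. Among genes with a mean of at least 1 CPM, the largest decreases in control mice were those of Eif4ebp1, a brake on translation that mTORC1 inactivates (log2 -1.21, and -0.89 in mice labelled FAKO), Psph, and the chromatin protein Nupr1 (-0.66 in both).

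Within that list, grouped after the values were seen, 8 of 9 aminoacyl-tRNA synthetases rose in each comparison (log2 1.25 to 1.79 in control mice, 1.28 to 1.66 in mice labelled FAKO). The ninth, Mars, fell (log2 -0.34 and -0.16), and is the gene that overlaps Ddit3. Of 8 amino acid transporters, 5 rose, 1 fell and 2 did not pass in control mice, and 6 rose and 2 fell in mice labelled FAKO.

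**Figure D3:**
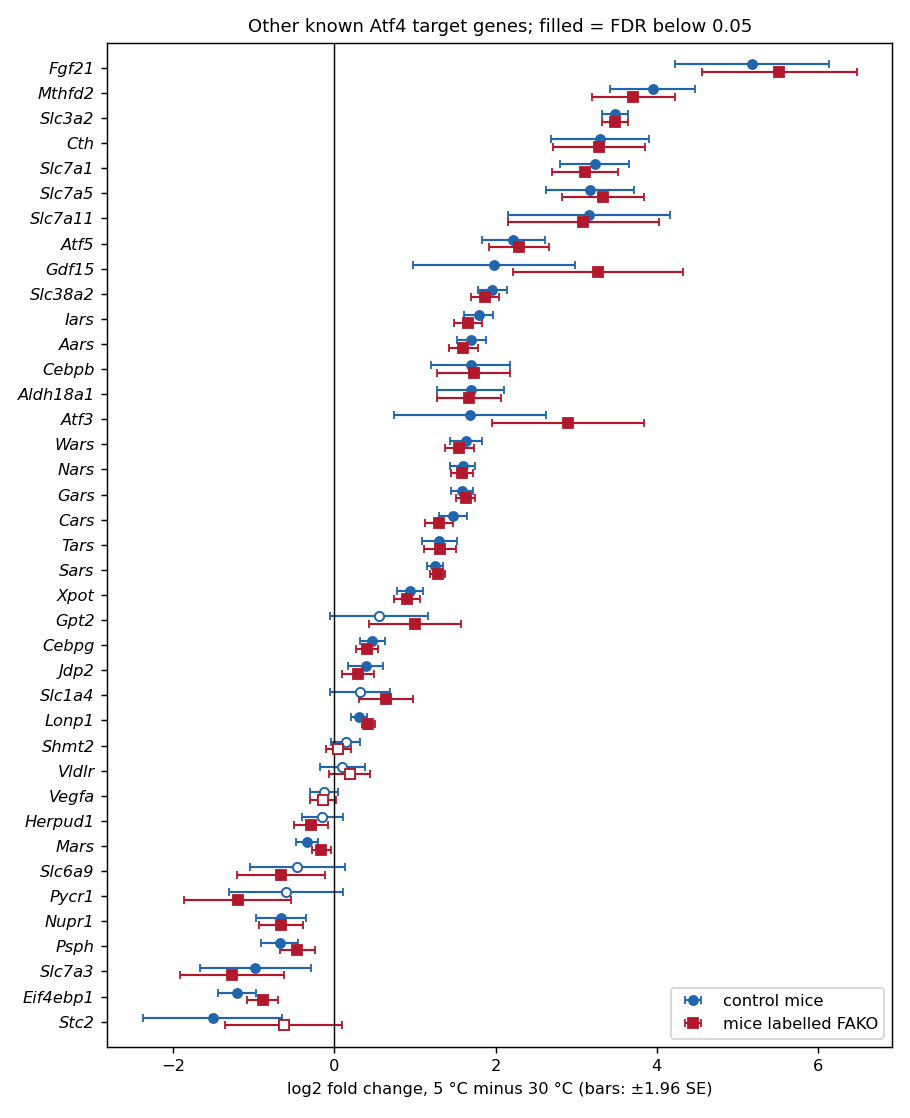
Log2 fold change from 30 to 5 °C (horizontal axis) of 39 other known Atf4 targets in control mice (circles) and mice labelled FAKO (squares), with bars for 95% intervals from the SE and open symbols where FDR did not pass 0.05. Genes are sorted by the value in control mice, from Fgf21 at 5.18 down to Stc2 at -1.51, with 25 filled above 0 and 6 filled below 0 in those mice.

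Upstream of Atf4, 12 of 18 genes of eIF2 control rose, 4 fell and 2 did not pass in each comparison. Eif2b3, a subunit of the exchange factor that recharges eIF2, rose by log2 1.86 and 1.80. Impact, an inhibitor of the eIF2 kinase Gcn2, rose by 1.34 and 1.19. Oma1, the protease that relays mitochondrial stress, fell (-1.02 and -0.99), as did its relay partner Dele1 (-0.45 and -0.52) and the kinase gene Eif2ak2 (-0.67 and -0.44). All of these passed the edgeR test.

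The serine and one-carbon list of 18 genes moved both ways, with 7 up, 7 down and 4 not past the threshold in control mice and 10, 6 and 2 in mice labelled FAKO. Mthfd2 and the transsulfuration enzyme Cth (log2 3.29 and 3.28) led the increases, and methionine synthase, Mtr, was among the decreases (-0.77 and -0.65). Of 20 genes of mTORC1 input, 8 rose and 6 fell in each comparison, with Rragc (1.36 and 1.21) and Mtor (0.88 and 1.03) among the increases and Castor1, an arginine sensor, lowest (-1.85 and -1.83). The median log2 fold changes were 0.10 and 0.37 for the serine list and 0.02 and 0.16 for the mTORC1 list. Of all genes tested, 31.6% rose and 33.4% fell in control mice, and 33.7% and 34.9% in mice labelled FAKO. These shares apply to the cold counts of every list given here.

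Of 16 targets of the other branches of the unfolded protein response, which run through Atf6 and Xbp1, 11 rose and 4 fell in control mice (11 and 3 in mice labelled FAKO). The endoplasmic reticulum chaperone Hspa5 rose by 1.29 and 1.24 and its cochaperone Dnajb9 by 2.44 and 2.48, beside the Ddit3 that did not rise. Edem1 (-0.9 and -0.79) and Pdia4 (-0.77 and -0.7) fell in both comparisons, and Xbp1 itself fell in control mice (-0.47). All 10 glucocorticoid target genes rose in both comparisons, with medians of log2 2.10 and 2.14.

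Marker lists of other cell types were measured beside the cold response. Summed neutrophil markers were at 3.35 to 11 CPM in WT30 and 8.11 to 16.3 CPM in WT5. They were at 2.56 to 5.63 CPM in KO30 and 7.17 to 76.1 CPM in KO5, without overlap. Of 7 neutrophil markers tested, 5 rose past the edgeR threshold in control mice and 6 in mice labelled FAKO. Ly6g was at 0 in both groups at 30 °C. Skeletal muscle markers did not pass the test for any of 10 genes in either cold comparison, and with their summed level as a covariate 9 and 10 of the stress response genes passed, as before. Macrophage sums were 229 to 328 CPM in WT30 and 257 to 317 CPM in WT5, and fibroblast and red cell sums of control mice overlapped as well. Other sums did not overlap between the temperatures in control mice. The endothelial sum was higher in the cold (726 to 966 CPM in WT30, 1060 to 1230 CPM in WT5), as was that of nuclear-retained RNAs (8950 to 10600 and 14800 to 16300 CPM). The sums of mural cell markers (699 to 865 and 604 to 694 CPM), Schwann cell markers (148 to 183 and 99.1 to 120 CPM) and lymphocyte markers (medians of 7.49 and 3.18 CPM) were lower in the cold. The markers within a list did not all move alike. In control mice, 6 of 10 endothelial markers rose and 4 fell, and 3 of 8 mural cell markers rose and 5 fell. In mice labelled FAKO these sums overlapped between the temperatures, such as the endothelial (828 to 1100 and 903 to 1230 CPM) and mural cell sums (675 to 821 and 546 to 726 CPM). Red cell sums were 289 to 609 CPM in KO30 and 517 to 1500 CPM in KO5. All 5 red cell markers rose past the edgeR threshold in mice labelled FAKO, beside 0 of 5 in control mice. For the difference of cold responses, 0 of 5 passed. At an unadjusted p under 0.05 (edgeR) it was 5 of 5, beside 16.2% of all genes. The part of these lists in the cold response was not tested further.

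At 30 °C none of the 10 genes passed the test between mice labelled FAKO and control mice (edgeR, 0 of 10, and 0 of 10 at an unadjusted p under 0.05). Among all genes, 0.081% passed the first threshold and 7.65% the second. The estimates were all below 0, with a median log2 fold change of -0.26 beside -0.02 over all genes, but with scaling by library size alone Ddit3, Asns, Ddit4 and Phgdh turned positive. KO30 libraries had a median of 28.3% mitochondrial counts where WT30 had 37.2%, and median TMM factors of 1.17 and 0.993, and the part of this in the estimates was not tested. A list of 12 immediate early genes, which stimuli induce within minutes, also had all estimates below 0 at 30 °C. This held under library size alone as well. The median of the list was -0.67, with 0 of 12 past the edgeR threshold and 3 of 12 at an unadjusted p under 0.05. Without WT30 mouse 7, 9 of 12 had an unadjusted p under 0.05 (edgeR). Leaving out that mouse also moved the number of all genes past the FDR threshold from 14 to 93. The share of all genes at an unadjusted p in that fit is not given here. In the cold comparison 1 of these 12 rose and 2 fell in control mice, and 2 rose in mice labelled FAKO. Their part in the estimates of the 10 genes was not tested. The largest differences were those of Psat1 (log2 -0.54, 95% interval -1.13 to 0.05, edgeR FDR = 0.709) and Ppp1r15a (log2 -0.52, 95% interval -1.02 to -0.02, edgeR FDR = 0.653). Intervals here come from the SE by the normal distribution and are a little narrower than the test. Without WT30 mouse 7 the Psat1 difference was log2 -0.08. For Asns and Phgdh, the least variable genes, the intervals were -0.26 to 0.22 and -0.26 to 0.21, while that of Atf4 was -0.52 to 0.03.

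At 5 °C again 0 of the 10 passed (edgeR), where 0.139% of all genes did, and 0 of 10 had an unadjusted p under 0.05, beside 13.4% of all genes. Of the estimates 4 were above 0 and 6 below. The largest was that of Ddit4 (log2 0.50, 95% interval -0.10 to 1.10, edgeR FDR = 0.484), which was -0.10 without KO5 mice 24 and 25. Ddit3 had the lowest estimate (log2 -0.29, 95% interval -0.65 to 0.08, edgeR FDR = 0.514), and Atf4 lay at -0.15 (95% interval -0.45 to 0.14). Red blood cell markers summed to 417 to 684 CPM in WT5 and 517 to 1500 CPM in KO5. Nuclear-retained RNAs summed to 14800 to 16300 CPM in WT5 and 10300 to 13600 CPM in KO5, without overlap, and one of them, Neat1, passed the test (log2 -0.99, edgeR FDR = 0.0206). The part of these in the estimates was not tested.

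The difference between the cold responses of mice labelled FAKO and control mice did not pass the test for any of the 10 genes (edgeR, 0 of 10, and 0 of 10 at an unadjusted p under 0.05), with 1.16% and 16.2% of all genes passing. The largest was that of Ppp1r15a (log2 0.72, SE 0.37, 95% interval 0 to 1.44, edgeR FDR = 0.337). Psat1 followed with 0.64 (95% interval -0.19 to 1.48), which was 0.20 without WT30 mouse 7. Ddit4 stood at 0.60 (95% interval -0.22 to 1.43), which was -0.02 without that mouse and KO5 mice 24 and 25. The difference in Atf4 itself was 0.10 (95% interval -0.31 to 0.50). Neat1, whose RNA stays in the nucleus, did pass this test (log2 -1.61, edgeR FDR = 0.00268).

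**Figure D4:**
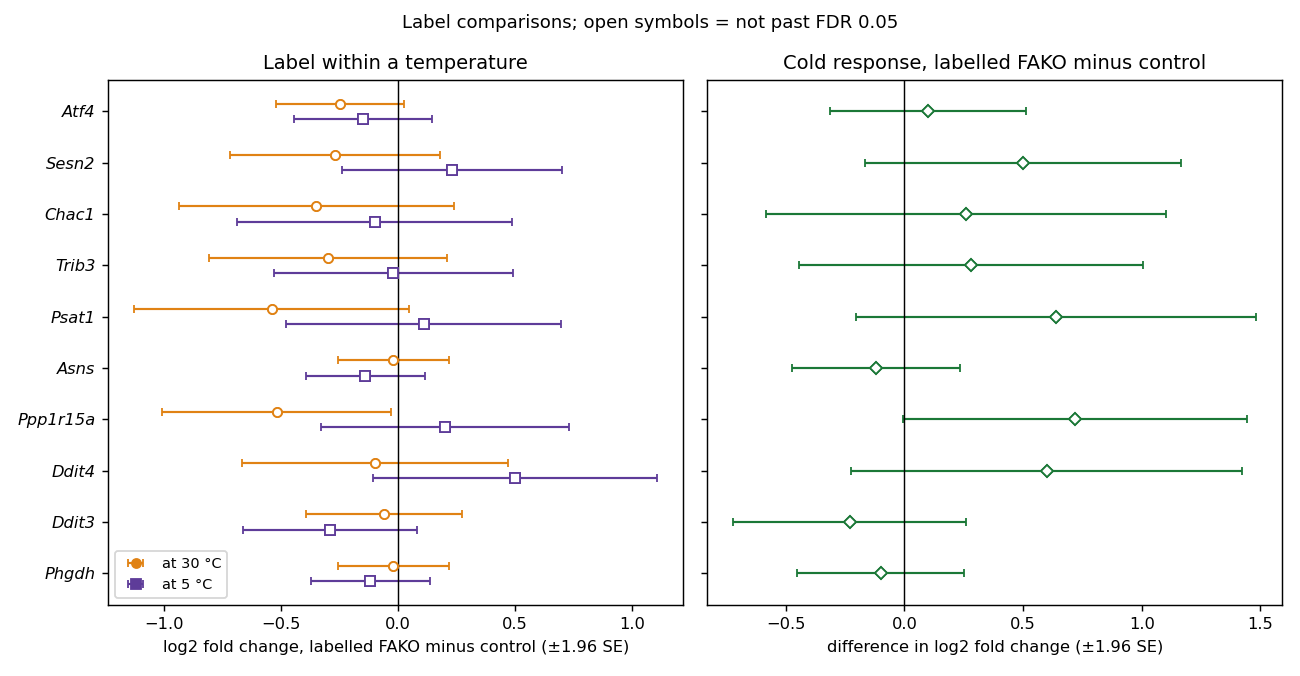
Left, log2 fold change of mice labelled FAKO against control mice at 30 °C (circles) and 5 °C (squares). Right, difference between their cold responses (diamonds). Bars are 95% intervals from the SE, the horizontal axes are log2 scales, and every symbol is open because none of the 10 genes passed FDR 0.05. The largest difference was that of Ppp1r15a at 0.72.

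The genes also differed in how much they varied between mice of one group. The SD of log2 CPM within groups, pooled over the 4 groups, was lowest for Phgdh (0.23), Asns (0.24) and Atf4 (0.28), and highest for Chac1 (0.57), Ddit4 (0.56) and Psat1 (0.54). After subtraction of the group means, the 45 pairs of genes had Pearson correlations from -0.59 to 0.79 over the 26 mice, with a median of 0.19, and 10 pairs were above 0.5. The mice share their library, depth and tissue makeup across genes, so these are descriptions. Psat1 and Phgdh had the highest value (0.79), although cold moved them in opposite directions, and WT30 mouse 7 was highest in both. Atf4 varied together with Ppp1r15a (0.73), Ddit3 (0.64) and Asns (0.60), while Sesn2 varied with Ddit4 (0.65) and Trib3 with Chac1 (0.56). Ddit3 and Ddit4 varied in opposite ways (-0.59). KO5 mice 24 and 25 weigh on that value, being lowest of their group in Ddit3 (10.6 and 13.6 CPM) and highest in Ddit4 (121 and 80.3 CPM).

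Among 10037 genes with a mean of at least 5 CPM, the 5 most like Atf4 by this measure were Adrb1 (0.83), Ier3 (0.81), Srsf9 (0.81), Srsf2 (0.80) and Dusp10 (0.80), and Ppp1r15a ranked 22. Ddit3 ranked 106 and Asns 162, whereas Ddit4 ranked 8958 with a correlation of -0.33.

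KO5 mice 24 and 25 split the 10 genes. They held the lowest KO5 values of 3 genes, Atf4 (245 and 249 CPM, beside 292 to 409 in the other 5 mice), Asns (95.2 and 101 CPM, beside 109 to 190) and Ddit3 (10.6 and 13.6 CPM, beside 19.6 to 32). They held the highest values of 2 genes, Sesn2 (91.8 and 62.9 CPM, beside 38.6 to 53.8) and Ddit4 (121 and 80.3 CPM, beside 29.6 to 41.7). For the other 5 genes they did not both lie outside the range of the rest, although mouse 24 held the lowest Phgdh value of the group (7.86 CPM, beside 8.13 to 13.2 in the other 5). The same mice had the lowest TMM factors (0.769 and 0.759), 37.4 and 39.3% mitochondrial counts, the highest muscle marker sums of the group (8433 and 17090 CPM) and the highest Fkbp5, a glucocorticoid target (141 and 161 CPM). Other glucocorticoid targets were mixed. Per1 (101 CPM in both) and Cdkn1a (234 and 270 CPM) were also highest there. Tsc22d3 was at 119 CPM in mouse 24 and 159 CPM in mouse 25, beside 88.1 to 150 CPM in the other 5. The part of these in the split was not tested.

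**Figure D5:**
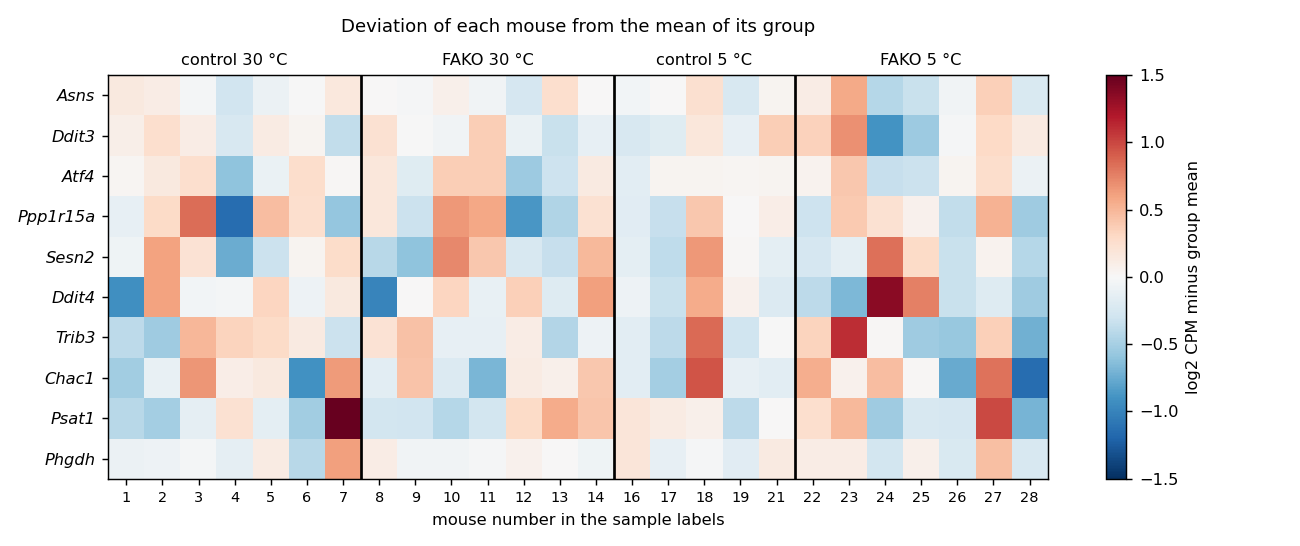
Deviation of each mouse from the mean of its group in log2 CPM (colour, red above and blue below the mean) for the 10 genes (rows) and 26 mice (columns, by group). WT30 mouse 7 is red in Psat1 and Phgdh, and KO5 mice 24 and 25 are blue in Asns, Ddit3 and Atf4 and red in Sesn2 and Ddit4.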

How the data were processed

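RNA from BAT (labelled supraclavicular) was depleted of ribosomal RNA and made into stranded total RNA libraries, sequenced as 100-bp single-end reads. The deposited values are raw gene-level counts, which the authors made by aligning reads to mm10 with STAR (version 2.5.2b) and counting with featureCounts (version 1.5.2) on GENCODE M13, without normalization. The strand setting of the counting was not given in the sources used here. Symbols, exon lengths and positions came from GENCODE M21 (GRCm38) by gene identifier, which named 50376 of 50686 genes, and promoters came from RefSeq (GRCm38.p6).

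The 26 mice were grouped by their sample labels. Nothing in the labels says more of their litters, so the p-values measure the spread between mice. Counts were analysed with edgeR 4.0.16 in R 4.3.3 after the study's methods (edgeR 3.22.0): filterByExpr by group, TMM factors, the model 0 + group over all 4 groups, and glmQLFit and glmQLFTest in legacy mode. FDR is the Benjamini-Hochberg adjusted p over the 17286 genes tested. SE is the log2 fold change divided by the square root of F, and CPM values on the log2 scale use a prior count of 2. RPKM was computed from TMM-scaled CPM and the merged exon length. The fit was tested on simulated data before use. All 73 pairs of mice of one group differed by more than sampling noise (lowest chi-square per gene 6.46).

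All 10 genes were named, together with their family relatives. From each other list, at most the 3 genes with the largest increase and the 3 with the largest decrease past the threshold and a mean of at least 1 CPM were named, and Mars, Stc2, Per1, Tsc22d3, the tRNA synthetases and transporters were singled out after their values were seen. The 10 genes and all lists were chosen with earlier results of these data known. Alternatives were DESeq2 1.42.0, library size alone, upper-quartile factors, no filter on low counts, at least 10 counts in every mouse, the revised quasi-likelihood method, robust empirical Bayes, fits on the groups compared alone, and leaving out each mouse. Leaving out KO5 mice 24 and 25, with or without WT30 mouse 7, and a covariate for skeletal muscle markers were chosen after seeing the data. A gene that the naming rule picks is not reported here.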

Additional observations from a re-analysis of the deposited data

Results flagged for a closer look

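Of 40 sets of values (10 genes in 4 groups), 4 held 1 mouse far from the others of its group by Dixon's criterion, which chance alone meets in about 1 set in 20. Atf4 was low in WT30 mouse 4, at 50.1 CPM with the next mouse at 71.4 CPM, and that mouse was also the lowest of its group in Ppp1r15a, Sesn2 and Asns. Atf4 was also low in WT5 mouse 16, at 313 CPM beside 357 to 363 CPM in the other 4, a narrow group in which this value was still above every mouse at 30 °C. Chac1 was high in WT5 mouse 18, at 17.9 CPM with the next at 8.47 CPM, and the same mouse was highest of its group in Trib3, Sesn2, Ddit4, Asns and Ppp1r15a. Psat1 was high in WT30 mouse 7, at 18 CPM with the next at 7.37 CPM, and that library also had the lowest mitochondrial share and the highest fibroblast marker sum of all 26. Its muscle marker sum was the highest of the mice at 30 °C (13400 CPM).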

How the results depend on the processing

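The counts of the 10 genes past the threshold held under every alternative run: 9 in cold control mice, 9 or 10 in cold mice labelled FAKO, and 0 in both label comparisons and in the difference of cold responses. In cold control mice every gene kept its direction and call in all alternatives. In cold mice labelled FAKO only Ddit3 lost its call, at -0.44 with only the groups compared (edgeR FDR = 0.0528), -0.20 without KO5 mice 24 and 25, -0.18 also without WT30 mouse 7, and in 5 of 14 fits that each left out 1 mouse (range -0.54 to -0.29). The cause was not tested. Estimates that changed sign were all outside the threshold. At 30 °C, library size alone gave Ddit3 0.09, Asns 0.12, Ddit4 0.03 and Phgdh 0.09, upper-quartile factors gave Asns 0.01 and Phgdh 0.01, leaving out the 3 mice gave Asns 0.01 and Phgdh 0.11, and the muscle covariate gave Asns 0. Leaving out 1 mouse gave -0.06 to 0.03 for Asns, -0.13 to 0.01 for Ddit3, -0.22 to 0.03 for Ddit4 and -0.09 to 0.12 for Phgdh. At 5 °C, leaving out KO5 mice 24 and 25 gave Trib3 0.11, Sesn2 -0.04 and Ddit4 -0.10, and leaving out the 3 mice gave Trib3 0.10, Sesn2 -0.04 and Ddit4 -0.10. Leaving out 1 mouse there gave -0.28 to 0.26 for Trib3, -0.25 to 0.24 for Chac1 and -0.11 to 0.21 for Psat1, and Trib3 and Chac1 reached 0.26 and 0.24 without WT5 mouse 18. In the difference of cold responses, library size alone gave Atf4 -0.06, leaving out KO5 mice 24 and 25 gave Asns 0.02, and leaving out the 3 mice gave Ddit3 0.05 and Ddit4 -0.02.

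Library size alone moved the median log2 fold change of all genes from -0.01 to -0.14 in cold control mice and from -0.03 to -0.34 in cold mice labelled FAKO, where Atf4 was still at 2.05 and 1.99, and it changed the split of all genes up and down from 5825 and 6035 to 3223 and 8384 in the latter and from 5454 and 5779 to 4165 and 6243 in the former. The number of all genes past the threshold was unstable in the label comparisons. At 30 °C it was 14, beside 48 with DESeq2, 34 with library size alone, 9 with no filter, 93 without WT30 mouse 7 and 121 without the 3 mice. At 5 °C it was 24, beside 197 with DESeq2, 5 with library size alone and 100 without KO5 mouse 22. For the difference it was 200, beside 488 with DESeq2, 27 with no filter and 94 without KO5 mice 24 and 25. No paired analysis was possible because the labels do not give the litter of each mouse. The replicate numbers run on from group to group and so cannot mark pairs. Chac1 had as few as 22 counts in a library, which limits its precision.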
